A study of Mus musculus with 6 samples.

Results

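The 104 genes described here are the regulators of the cell cycle that stand outside DNA replication, among 14882 genes measured in the hypertrophic zone of the mouse growth plate. They were chosen by pathway annotation: of 117 rows of the deposited table annotated to the KEGG pathway Cell cycle, 10 that also belong to a DNA replication or excision repair pathway and the 3 TGF-beta ligands were set aside. The group was proposed with earlier results of these data in view, in which cell cycle genes had higher values in the mutant libraries. Every difference between genotypes below is therefore a description and not a test. The members were sorted by role into 15 CDK inhibitors, pocket proteins and other brakes, 14 cyclins, cyclin-dependent kinases (CDKs) and CDC25 phosphatases, 7 E2F and DP factors, 10 origin licensing genes, 32 mitotic genes, 3 genes of the SCF ubiquitin ligase, 7 DNA damage checkpoint genes, 6 14-3-3 genes and 10 signalling and chromatin genes.

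Cells pass through division as cyclins switch on CDKs in turn, and CDK inhibitors and the pocket proteins of the retinoblastoma family hold them back. In the growth plate, columnar chondrocytes divide and then leave the cycle as they enlarge, so the hypertrophic zone is known as a post-mitotic layer, in which the CDK inhibitor Cdkn1c is a well-known marker of cell cycle exit. Once cells do commit to division, E2F factors switch on genes of the G1/S transition, and the mitotic genes, whose promoters often hold a pair of elements called CHR and CCAAT, follow in G2 and M phase.

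The samples were laser-microdissected hypertrophic zones of the proximal tibia of C57BL/6 mice aged 7 days. There were 3 wild-type (WT) libraries and 3 of Adamts17-/- mice, which lack the secreted metalloprotease ADAMTS17 and are given as littermates. RNA was linearly amplified before the libraries were made. The allele, the sex of the animals and the number of animals behind each library were not stated in the labels, so the spread between libraries may be partly technical. Values are given below in the order of replicates 1, 2 and 3. They are read as RPKM, reads scaled by transcript length and by library depth, although no source names the unit. Such a level can be compared between genes of different length.

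The libraries were uneven. Depth ran from 722119 to 1662637 read equivalents in WT and from 595989 to 2688295 in Adamts17-/-, the deepest being Adamts17-/- replicate 2. Adamts17 itself was at 0.246, 0.0407 and 0.397 RPKM in WT against 0.0085, 0.0870 and 0.0260 in Adamts17-/-, which is 6.49 read equivalents over the WT libraries and 1.25 over the others, too few to check the labels. Col10a1, the collagen of hypertrophic cartilage, lay between 1437 and 13347 RPKM in all 6 libraries, so the labelled tissue was present in each. Other tissue was present too. The muscle gene Tnnc2 was at 5387 in WT replicate 1, above Col10a1 there (2218). The erythroid gene Hbb-b1 was above Col10a1 in WT replicate 2, at 35255 against 13347. It was also above Col10a1 in Adamts17-/- replicate 1 (9615 against 1437) and replicate 2 (120228 against 1507). In replicate 3 of both genotypes, Hbb-b1 and Tnnc2 were below Col10a1. Of the members, 47 were listed at 0 in at least 1 library and 70 had at most 1 read equivalent in some library, so a value near 0 is not absence. At 0 were 0, 18 and 23 members in WT against 11, 5 and 28 in Adamts17-/-. Over all genes in the table, 391, 2476 and 3108 were at 0 in WT against 2280, 2112 and 3153 in Adamts17-/-.

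The summed level of the members was 1203, 1109 and 2119 RPKM in WT against 1649, 3867 and 1489.5 in Adamts17-/-. Over all genes in the table the sum was 290367, 425973 and 551698 in WT against 471381, 1091350 and 411363 in Adamts17-/-. Both sums were highest in Adamts17-/- replicate 2 and next in WT replicate 3, and sums by role below carry this background. Adamts17-/- replicate 2 held the highest value of 52 of the 104 members (50%), where it held that of 23.1% of all genes in the table. It led by at least 2-fold over the next library for 35 of them. The median member was at 4.29, 1.81 and 0.261 RPKM in WT against 4.79, 15.5 and 0.543 in Adamts17-/-. The same median over all genes in the table was 3.88, 1.11 and 0.535 in WT against 1.42, 1.86 and 0.681 in Adamts17-/-. Of the other two Adamts17-/- libraries, the median member of replicate 1 lay just above the WT range and that of replicate 3 within it. In whole-tissue RNA of this kind, more cells of a type and more RNA per cell cannot be told apart.

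**Figure D1:**
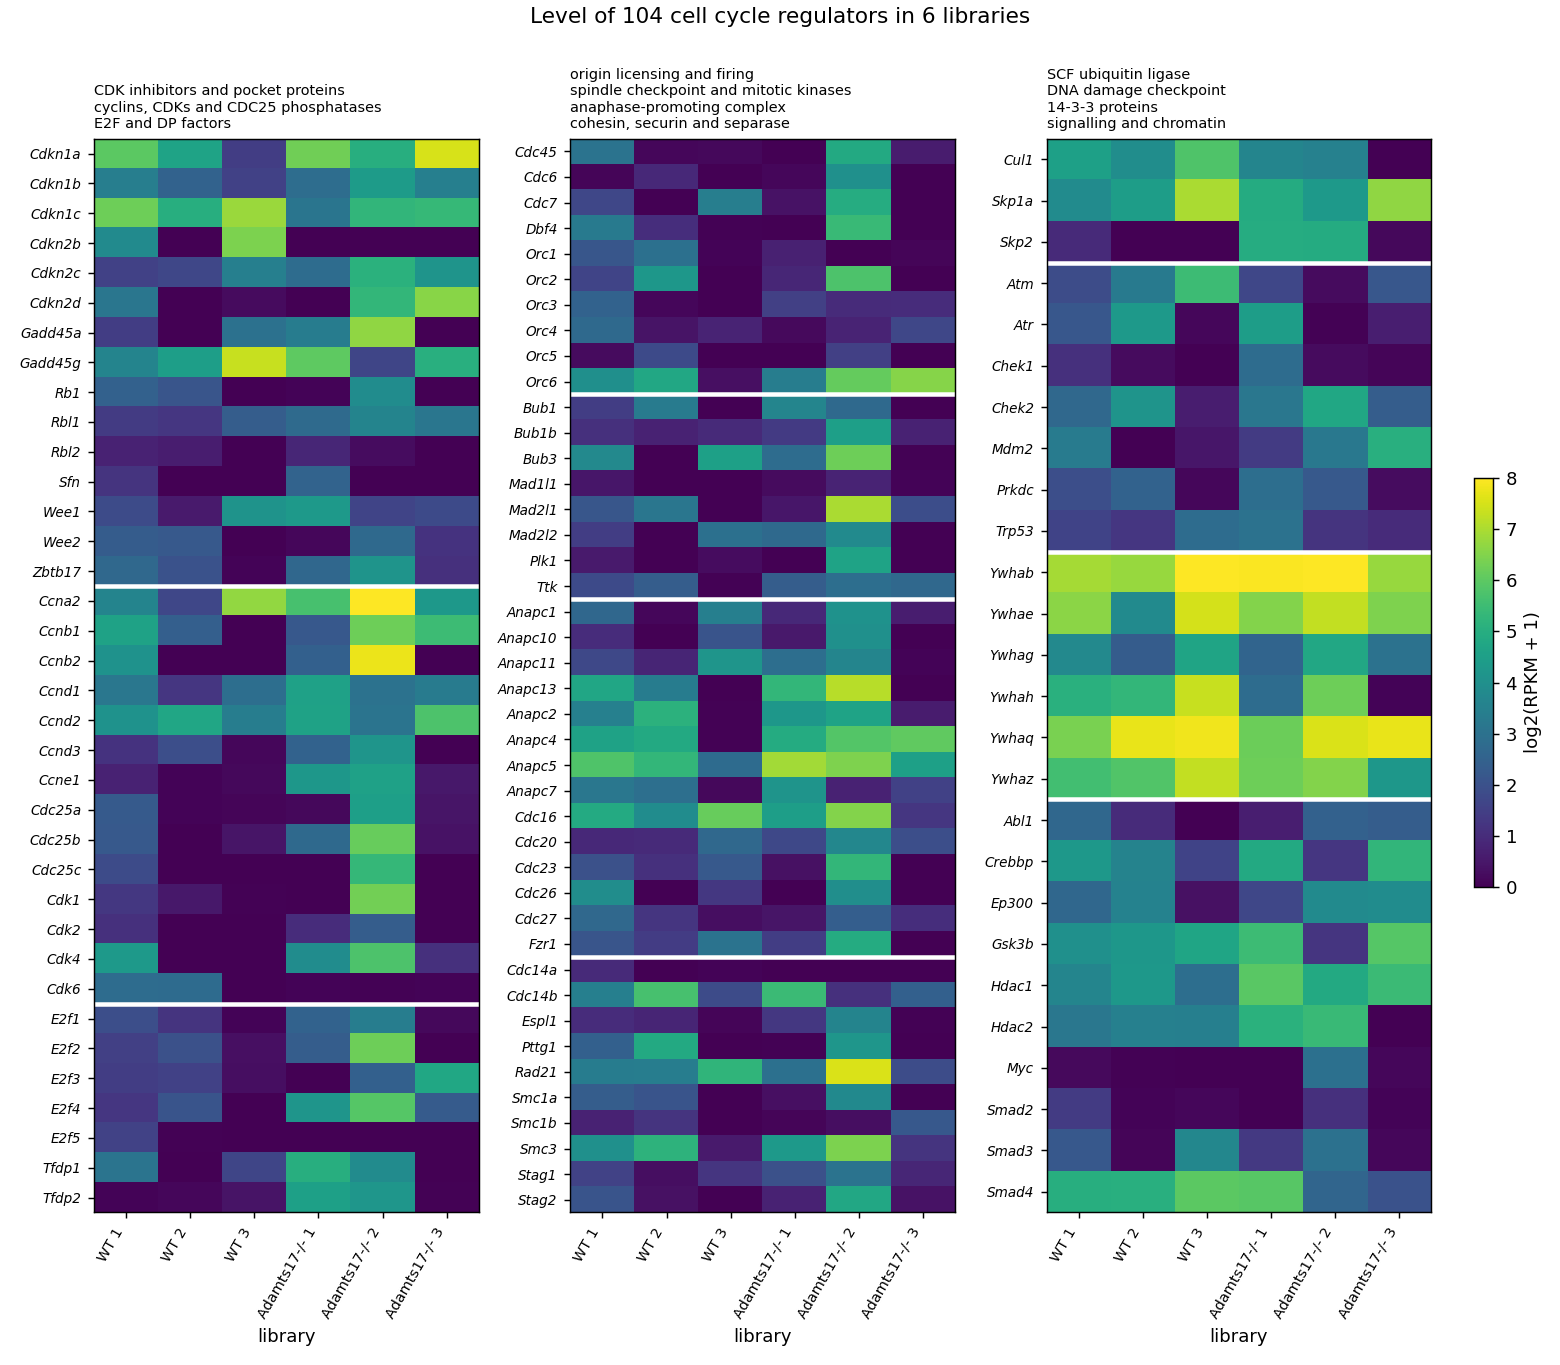
Level of each of the 104 cell cycle regulators, as log2(RPKM + 1) in colour, in 3 WT and 3 Adamts17-/- libraries, with roles listed above each panel in the order of the blocks that white lines divide. The column of Adamts17-/- replicate 2 is brightest for most cyclins, CDKs and mitotic genes, and Ywhab and Ywhaq of the 14-3-3 genes are bright in every column.

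**Figure D2:**
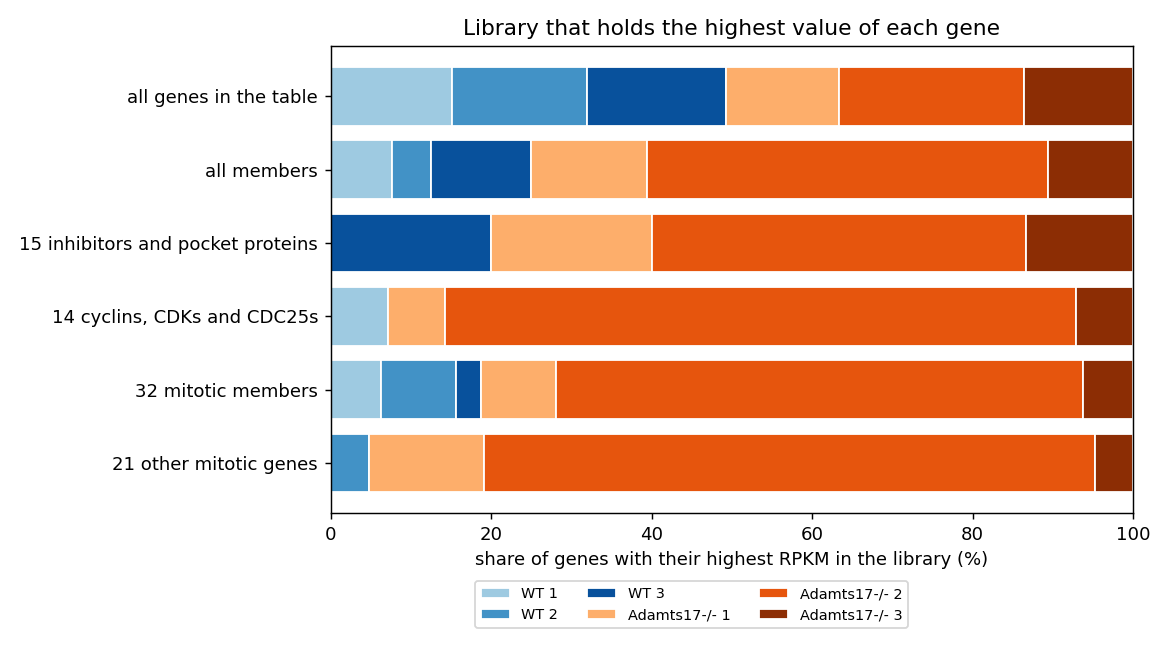
Share of genes, in percent, whose highest RPKM lies in each of the 6 libraries, for all genes, all members, 3 groups of members and other mitotic genes outside the annotation. Adamts17-/- replicate 2 takes 23.1% of all genes, 46.7% of inhibitors and pocket proteins, 78.6% of cyclins, CDKs and CDC25 phosphatases and 65.6% of mitotic members.

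Over all genes, both genotypes were compared by limma on log2(RPKM + 1), and at an adjusted p under 0.05 no gene was called higher (0%) and none lower (0%) among the 9128 genes that reached 1 RPKM in at least 3 libraries. Unadjusted, 229 genes had a p under 0.05, 0 of them members, and the smallest adjusted p was 0.999. Of the members, 80 passed that filter and 24 did not. A member that was seen in 1 group alone could pass the filter only by differing, so counts over those 80 are given as a description. Without the filter 71 of the 104 members had a higher and 33 a lower mean log2 level in Adamts17-/- (68.3% higher, where 49.0% of all genes were), and the median log2 fold change was 0.51 against -0.019 over all genes. Among the 80, 56 were higher and 24 lower, and with upper-quartile scaling 48 and 32. The median standard error (SE) of a member's log2 fold change was 1.48, larger than most of the differences.

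Without Adamts17-/- replicate 2 the picture was different: 46 of the 80 were higher and 34 lower, and their median log2 fold change went from 0.51 to 0.15, where all genes tested had 0.018. The sign turned from higher to lower for 15 members and from lower to higher for 5. With Adamts17-/- replicate 3 left out the median was 1.15. Groups that did not overlap were found for 4 members on the higher side, Rbl1, E2f4, Anapc4 and Hdac1, which is 5.0% of the 80 against a background of 3.09% of all genes tested, and for 1 on the lower side, Cul1, which is 1.25% against 3.54%. Nothing is read from these shares, since the group was chosen on this contrast.

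**Figure D3:**
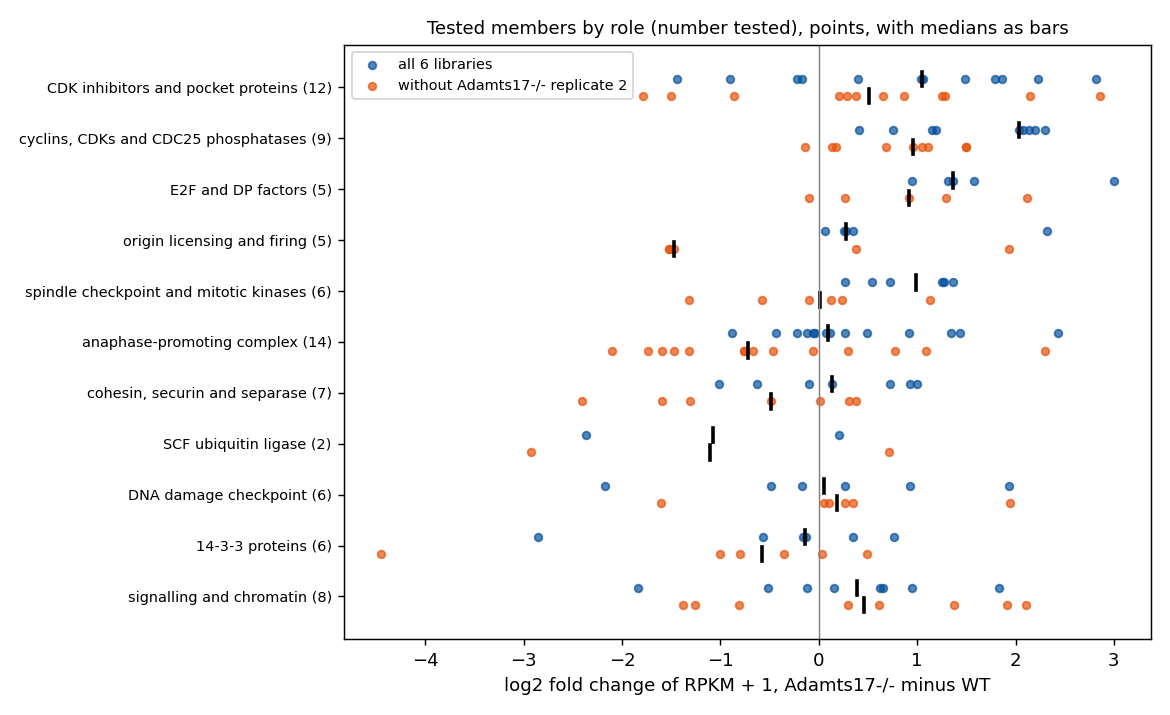
Log2 fold change of RPKM + 1, Adamts17-/- minus WT, of each tested member by role, with all 6 libraries in blue and without Adamts17-/- replicate 2 in orange, and the median of each role as a black bar. Leaving out that library brings the median of cyclins, CDKs and CDC25 phosphatases from 2.04 to 0.96, that of origin genes from 0.28 to -1.47 and that of the anaphase-promoting complex from 0.09 to -0.71.

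Summed over the 15 genes, the level of the brakes of the cycle was 204, 96.3 and 396 RPKM in WT against 204, 311 and 387 in Adamts17-/-, so the groups overlapped throughout. Of the 12 tested, 8 were higher and 4 lower in Adamts17-/-, with a median log2 fold change of 1.05, and 9 and 3 without replicate 2 (median 0.52). The median depended on the processing: it was 0.45 over all 15 without the filter on low values, and 0.5 with library weights. The brakes did not move as a block.

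Cdkn1c, the CDK inhibitor of the CIP/KIP family that marks cell cycle exit in cartilage (chromosome 7, 143458339 to 143461050), was at 74.8, 31.5 and 111 RPKM in WT against 7.56, 37.6 and 40.4 in Adamts17-/-. All 6 libraries had it, and 2 of the 3 WT values stood above all Adamts17-/- values while WT replicate 2 fell among them. The mean was 72.3 ± 39.6 in WT against 28.5 ± 18.2 in Adamts17-/- (SD, n = 3), a log2 fold change of -1.44 ± 1.31 (SE) that lay between -1.94 and -0.70 when single libraries were left out. In WT this was the most abundant CDK inhibitor on the per-length scale, above Cdkn1a and Cdkn2b, but the 3 overlapped between libraries.

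Cdkn1a, a CIP/KIP inhibitor best known as a target of p53, took the opposite course. Its level was 62.9, 23.9 and 1.73 RPKM in WT against 76.5, 31.1 and 181 in Adamts17-/-. In Adamts17-/-, replicates 1 and 3 were above every WT library and replicate 2 lay among the WT values, so the groups overlapped. The log2 fold change was 2.23 ± 1.39 (SE), and 0.94 without WT replicate 3, in which the gene rested on 3.0 read equivalents. Here replicate 2 was the lowest of the 3 Adamts17-/- libraries, unlike for the mitotic genes, and without it the value was 2.86.

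Cdkn1b, the remaining CIP/KIP inhibitor, was at 9.66, 4.77 and 1.95 RPKM in WT against 6.20, 19.8 and 10 in Adamts17-/-, with overlapping groups. Among the INK4 inhibitors, which block CDK4 and CDK6, Cdkn2c was at 1.92, 2.26 and 9.88 in WT against 6.05, 33.3 and 16.7 in Adamts17-/-, and only WT replicate 3 reached into the range of the mutants. Its log2 fold change was 1.79 ± 1.56 and stayed between 1.25 and 2.40 with 1 library left out. Cdkn2d was patchy, at 7.85, 0 and 0.184 in WT against 0, 37.9 and 93.8 in Adamts17-/-. Cdkn2b was listed at 0 in all 3 Adamts17-/- libraries and in WT replicate 2, and was at 13.3 and 84.7 RPKM in WT replicates 1 and 3. It was too rarely seen to pass the filter.

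The pocket proteins, which bind and silence E2F factors, were low. Rbl1, which encodes the pocket protein p107, was at 1.62, 1.43 and 4.12 RPKM in WT against 5.76, 11.1 and 7.83 in Adamts17-/-, so every mutant library was above every WT library. Its log2 fold change of 1.49 ± 1.55 was no larger than its SE. Rb1, the retinoblastoma gene, was at 4.64, 3.30 and 0.0126 in WT against 0.0542, 13.7 and 0 in Adamts17-/-, and its span holds Lpar6 on the opposite strand. Rbl2 stayed under 1 RPKM in every library. GADD45 proteins, which respond to stress and can inhibit CDK1, went separate ways: Gadd45a was at 1.72, 0 and 6.96 RPKM in WT against 9.32, 100.1 and 0 in Adamts17-/-, and Gadd45g at 11.3, 21.3 and 159.9 in WT against 63.1, 2.21 and 31.9 in Adamts17-/-. The library highest for Gadd45a was thus the lowest for Gadd45g. Wee1, a kinase that holds CDK1 inactive, was at 2.56, 0.479 and 16.3 in WT against 18.5, 2.09 and 2.44 in Adamts17-/-. The other members of this role, Sfn, Wee2 and Zbtb17, stayed at or under 16.6 RPKM in all libraries.

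**Figure D4:**
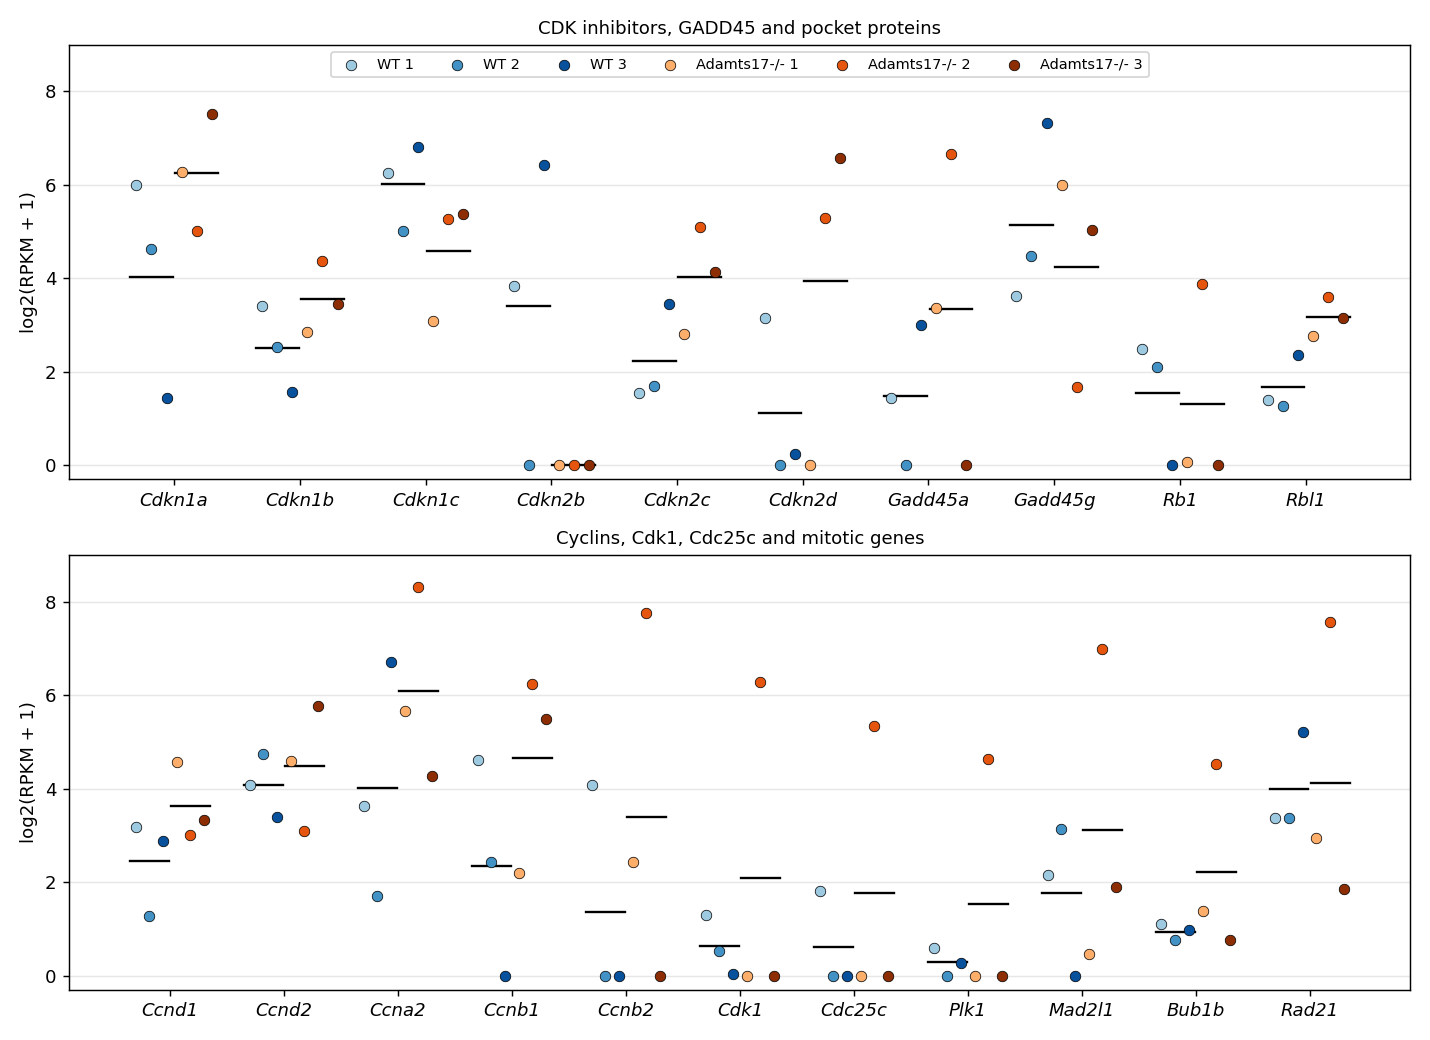
Level of 10 inhibitors, GADD45 genes and pocket proteins (upper panel) and of 11 cyclins and mitotic genes (lower panel) as log2(RPKM + 1), with a point for each library and a bar for the mean of the 3 libraries of a genotype. In the lower panel the point of Adamts17-/- replicate 2 is the highest for all genes but Ccnd1 and Ccnd2, and in the upper panel for 5 of 10.

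For cyclins, CDKs and CDC25 phosphatases the summed level was 115, 43.3 and 119 RPKM in WT against 147, 927 and 128 in Adamts17-/-, and replicate 2 held the highest value of 11 of the 14. All 9 tested had a higher mean log2 level in Adamts17-/- (median log2 fold change 2.04), and 8 without replicate 2 (0.96). That count depends on the filter on low values, which left out Cdk6, a gene higher in WT. Over all 14 genes without the filter the median was 1.33, and over the 9 with library weights it was 0.52. The summed level in Adamts17-/- replicates 1 and 3 also stood above all 3 WT libraries, by little. Their median gene did not, at 4.58 and 0.34 RPKM against 4.95, 0.248 and 0.0482 in WT.

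Of the D-type cyclins, which carry growth signals to CDK4 and CDK6, Ccnd1 and Ccnd2 departed from this pattern and Ccnd3 followed it. Ccnd1 was at 8.09, 1.43 and 6.34 RPKM in WT against 22.7, 7.04 and 9.09 in Adamts17-/-, and Ccnd2 at 15.9, 25.9 and 9.56 in WT against 23.2, 7.52 and 53.6 in Adamts17-/-. Both were found in all 6 libraries, and replicate 2 was the lowest Adamts17-/- library of each. Ccnd3 was at 1.27, 2.82 and 0.103 in WT against 4.74, 17.1 and 0 in Adamts17-/-. Their log2 fold changes were 1.19 ± 1.56, 0.41 ± 1.41 and 1.15 ± 1.3 (SE). Of their partners, Cdk4 was at 19.3, 0 and 0 RPKM in WT against 13.7, 53.6 and 1.16 in Adamts17-/-, while Cdk6 was seen only in WT replicates 1 and 2, at 6.11 and 5.93, and was at most 0.0657 in the other 4 libraries.

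The S and G2/M cyclins carried the largest values. Ccna2, the cyclin of S and G2 phase, was at 11.3, 2.26 and 103 RPKM in WT against 49.6, 317 and 18.4 in Adamts17-/-. It was the most abundant cyclin here on the per-length scale, and WT replicate 3 was second to Adamts17-/- replicate 2. Its log2 fold change was 2.08 ± 1.46 (SE) with all libraries and 0.96 without replicate 2, and its span overlaps Exosc9 on the opposite strand. Ccnb1, a mitotic cyclin, was at 23.5, 4.40 and 0 in WT against 3.57, 75.0 and 44.2 in Adamts17-/-. Ccnb2, the other mitotic B-type cyclin measured, was at 15.9, 0 and 0 in WT against 4.42, 216 and 0 in Adamts17-/-. For Ccnb1 2 mutant libraries stood above all WT libraries, for Ccnb2 only 1. The log2 fold change of Ccnb2 was 2.04 ± 1.81, and -0.14 without replicate 2.

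Cdk1, the kinase that drives entry into mitosis, was all but restricted to that library, at 1.47, 0.445 and 0.024 RPKM in WT against 0, 77.2 and 0 in Adamts17-/-. The 77.2 RPKM rest on 463 read equivalents, against 12 in WT replicate 1, the next highest. Of its activating phosphatases, Cdc25c was at 2.53, 0 and 0 in WT against 0, 39.3 and 0 in Adamts17-/-, and Cdc25b at 3.66, 0 and 0.371 in WT against 5.66, 69.0 and 0.320 in Adamts17-/-. All 3 peaked in the same library, and the highest value of Cdk1, Cdc25c and Cdc25b was 52.6, 15.5 and 12.2 times that of the next library. Cdk2, the S phase kinase, stayed at or under 4.12 RPKM, and Ccne1 and Cdc25a did not pass the filter.

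The mitotic members, which are the spindle checkpoint with Plk1, the anaphase-promoting complex, and cohesin with securin and separase, summed to 261, 286 and 195 RPKM in WT against 356, 1158 and 118 in Adamts17-/-. Of 27 tested, 18 were higher and 9 lower (median log2 fold change 0.27), and 10 and 17 without replicate 2 (-0.49). With that library the median was above 0 and without it below.

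The promoters of Ccnb2, Cdk1, Plk1 and Bub1b were picked because they hold the 2 elements that mitotic genes are known to share. They do not stand for all such genes, since Ccnb1 had no CHR match and Mad2l1 had neither element. Cdkn1a is given as an inhibitor with neither in its window. Only the window nearest to the deposited start of a gene was searched, so other starts of Cdkn1a were not covered. Each is a RefSeq window of 300 bases, 250 before and 50 after the transcript start, of build GRCm38.p6, read 5′ to 3′ on the gene's strand. Capitals mark matches on either strand to 3 searched motifs. The CHR element was searched as TTTGAA. The box that gives CCAAT its name appears as ATTGG where it lies on the opposite strand. For E2F the letters TTTCCCGC, TTTGGCGC, TTTCGCGC or TTTGCCGC were searched, and none of the marked matches overlap. The windows are chr9:70421505-70421804 (minus strand), chr10:69352863-69353162 (minus), chr7:122159185-122159484 (plus), chr2:118597961-118598260 (plus) and chr17:29090729-29091028 (plus), in this order.
Ccnb2: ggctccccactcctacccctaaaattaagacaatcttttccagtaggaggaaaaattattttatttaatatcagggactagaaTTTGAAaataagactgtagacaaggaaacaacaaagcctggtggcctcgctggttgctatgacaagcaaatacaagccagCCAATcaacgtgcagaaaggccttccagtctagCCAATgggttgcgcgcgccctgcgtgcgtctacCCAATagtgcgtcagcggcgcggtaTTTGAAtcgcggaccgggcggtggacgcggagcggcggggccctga
Cdk1: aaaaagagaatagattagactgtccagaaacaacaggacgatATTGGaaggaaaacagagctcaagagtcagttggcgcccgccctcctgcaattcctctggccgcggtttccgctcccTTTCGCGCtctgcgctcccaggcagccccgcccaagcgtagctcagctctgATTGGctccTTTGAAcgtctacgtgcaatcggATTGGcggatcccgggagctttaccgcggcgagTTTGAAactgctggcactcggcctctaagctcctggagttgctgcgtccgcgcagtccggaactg
Plk1: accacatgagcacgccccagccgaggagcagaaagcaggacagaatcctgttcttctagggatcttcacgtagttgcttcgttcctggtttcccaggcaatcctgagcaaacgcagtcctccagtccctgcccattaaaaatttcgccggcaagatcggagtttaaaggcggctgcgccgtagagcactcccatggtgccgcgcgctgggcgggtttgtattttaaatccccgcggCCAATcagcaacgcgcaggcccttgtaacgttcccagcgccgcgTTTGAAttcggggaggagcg
Bub1b: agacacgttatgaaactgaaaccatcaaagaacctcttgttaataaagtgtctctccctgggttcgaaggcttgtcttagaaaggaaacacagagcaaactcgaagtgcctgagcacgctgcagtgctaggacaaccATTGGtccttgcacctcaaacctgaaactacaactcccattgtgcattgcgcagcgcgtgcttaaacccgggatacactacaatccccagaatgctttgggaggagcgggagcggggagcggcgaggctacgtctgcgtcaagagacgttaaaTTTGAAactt
Cdkn1a: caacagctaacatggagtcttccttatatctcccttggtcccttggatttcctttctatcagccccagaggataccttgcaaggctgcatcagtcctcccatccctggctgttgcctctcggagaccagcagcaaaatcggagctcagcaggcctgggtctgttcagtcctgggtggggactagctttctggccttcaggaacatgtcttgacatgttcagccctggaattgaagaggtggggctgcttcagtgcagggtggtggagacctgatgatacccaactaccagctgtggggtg

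Ccnb2 held 2 CHR and 3 CCAAT matches, Cdk1 2 CHR, 3 CCAAT and 1 E2F, and Plk1 and Bub1b 1 CHR and 1 CCAAT each. Windows were found for 85 of the 104 members and for 11649 genes of the table. A CHR match together with a CCAAT match stood in 4 of 8 windows of the spindle checkpoint role, in 6 of 29 of all mitotic members (20.7%) and in 0 of 12 of the brakes, against 5.55% of all windows. Taken singly, CHR stood in 2 of those 12 brakes and CCAAT in 6 (50%), where CCAAT stood in 38.9% of all windows. By library, 9 of the 43 matched members with their highest value in Adamts17-/- replicate 2 had both (20.9%), and 2 of the 42 others (4.76%). This split cannot be told apart from that by role. Of the mitotic members 65.6% were highest in that library, and the DNA damage, 14-3-3 and signalling roles had 0 windows with both. CHR alone stood in 17 of the 85 (20%, and 13.2% of all windows), and E2F letters in 13 (15.3%, and 3.78%). A match of letters is not a binding site, and no test was made of these shares.

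In the spindle checkpoint, which holds back anaphase until chromosomes are attached, 7 of 8 genes were highest in Adamts17-/- replicate 2. Plk1, the polo-like kinase of mitotic entry, was at 0.508, 0 and 0.212 RPKM in WT against 0, 23.7 and 0 in Adamts17-/-. Mad2l1, the checkpoint protein MAD2, was at 3.45, 7.75 and 0 in WT against 0.385, 126 and 2.73 in Adamts17-/-, and Bub1b, its partner in the checkpoint complex, at 1.15, 0.694 and 0.955 in WT against 1.59, 22.1 and 0.684 in Adamts17-/-. For all 3 the remaining mutant libraries were within or below the WT range, or barely above it. Their log2 fold changes show it: that of Mad2l1 was 1.36 ± 1.74 (SE) and -0.58 without the library, and that of Bub1b 1.27 ± 1.24 and 0.12. Bub1, the checkpoint kinase, was the exception, at 1.71, 9.12 and 0 RPKM in WT against 11.4, 5.60 and 0.0181 in Adamts17-/-. Ttk, the MPS1 kinase, was near 0 only in WT replicate 3, at 2.47, 4.10 and 0.0288 in WT against 4.08, 6.42 and 5.56 in Adamts17-/-.

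The anaphase-promoting complex, the ubiquitin ligase that ends mitosis and also keeps arrested cells in G1, was measured at all 14 genes and all were tested. With 8 higher and 6 lower its median log2 fold change was 0.09, and without replicate 2 there were 4 higher and 10 lower. The mean level over the 6 libraries ran from 2.13 RPKM for Cdc27 to 54.2 for Anapc5. Anapc5 was at 54.6, 38.2 and 5.89 RPKM in WT against 117, 87.0 and 22.3 in Adamts17-/-, and Cdc16 at 28.9, 13.7 and 69.6 in WT against 21.4, 90.2 and 1.41 in Adamts17-/-. Anapc4, a subunit of the platform, was at 23.5, 28.1 and 0.0243 in WT against 29.2, 57.0 and 64.6 in Adamts17-/-, the one gene of the complex whose groups did not overlap, with a log2 fold change of 2.43 ± 1.48. WT replicate 3 sets that value in part, since without it the change was 0.86. The mitotic activator Cdc20 was at 0.892, 0.928 and 5.52 RPKM in WT against 2.31, 11.9 and 2.77 in Adamts17-/-, and Fzr1, the activator CDH1 that works in G1, at 3.27, 1.69 and 7.25 in WT against 1.73, 29.6 and 0 in Adamts17-/-. Both were highest in replicate 2.

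Cohesin holds sister chromatids together until separase cuts it. Its kleisin Rad21 was at 9.32, 9.40 and 36.3 RPKM in WT against 6.75, 188 and 2.61 in Adamts17-/-, so that 2 mutant libraries were below all WT libraries and 1 above. The log2 fold change of 0.13 ± 1.55 hides this, and was -1.59 without replicate 2. Smc3 was at 15.2, 34.7 and 0.502 in WT against 19.1, 84.1 and 1.29 in Adamts17-/-. Pttg1, the securin that guards separase, was at 4.43, 27.8 and 0 in WT against 0.0280, 17.6 and 0 in Adamts17-/-, and Espl1, separase itself, at 1.03, 0.768 and 0.0783 in WT against 1.47, 11.2 and 0.0236 in Adamts17-/-. Securin was thus highest in a WT library. The phosphatase Cdc14b also was, at 10, 49.5 and 2.52 in WT against 42.5, 1.18 and 4.51 in Adamts17-/-.

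E2F and DP factors are the transcription factors that pocket proteins restrain. They summed to 17.3, 9.56 and 3.10 RPKM in WT against 79.9, 176 and 30.2 in Adamts17-/-. All 3 mutant sums stood above all WT sums, but that of replicate 3 was mostly E2f3, at 26.1 RPKM. The median gene of this role in Adamts17-/- replicate 3 was at 0.041 RPKM, the lowest of any library. E2f4, the factor that acts with pocket proteins in arrested cells, was at 1.40, 3.24 and 0 in WT against 17.1, 57.9 and 3.93 in Adamts17-/-. Its groups did not overlap, and its log2 fold change of 3.00 ± 1.62 (SE), the highest of the 80, lay between 2.12 and 3.91 when single libraries were left out. In Adamts17-/- replicate 3 the value rests on 5.0 read equivalents, about what WT replicate 2 had (5.08), which is too near to tell the 2 apart. E2f2 was at 1.86, 2.97 and 0.246 in WT against 4.11, 73.5 and 0 in Adamts17-/-, and E2f3 at 1.73, 1.92 and 0.229 in WT against 0.00956, 4.48 and 26.1 in Adamts17-/-. These had their highest values in different libraries.

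Origin licensing genes, which load and fire the replication helicase, were poorly covered, and 5 of 10 were tested. Orc6 was at 14.8, 26.9 and 0.247 RPKM in WT against 9.46, 68.3 and 92.9 in Adamts17-/-. Dbf4, the activator of the CDC7 kinase, was at 8.89, 1.07 and 0.0299 in WT against 0, 42.3 and 0 in Adamts17-/-, and Cdc7 at 2.23, 0 and 9.73 in WT against 0.3, 29.7 and 0. Both partners were high in Adamts17-/- replicate 2 and at or near 0 in the other two, and leaving it out turned their log2 fold changes from 0.35 and 0.068 to -1.47 and -1.52. Cdc6, the loading factor, was at 15 RPKM in that library and at most 0.875 elsewhere.

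Among the remaining roles replicate 2 did not stand out, with the highest value of 5 of 26 genes in all. The SCF ligase removes inhibitors such as Cdkn1b. Its scaffold Cul1 was at 22.2, 14.1 and 54.4 RPKM in WT against 11.4, 10.4 and 0 in Adamts17-/-, the single tested member with all mutant libraries below all WT libraries. The log2 fold change was -2.37 ± 1.54 (SE) and lay between -2.99 and -1.17 when single libraries were left out. The adaptor Skp1a was at 13.6, 21 and 126 in WT against 29.5, 19.0 and 102 in Adamts17-/-.

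DNA damage checkpoint genes summed to 26.8, 50.6 and 50.7 RPKM in WT against 52.7, 39.5 and 41.4 in Adamts17-/-, with overlapping groups and lowest in WT replicate 1. Within them Atm, the kinase that senses double-strand breaks, was at 2.62, 8.78 and 43.4 in WT against 2.28, 0.181 and 3.48 in Adamts17-/- (log2 fold change -2.17 ± 1.61), and Mdm2, the ligase that degrades p53, at 9.03, 0.0205 and 0.396 in WT against 1.63, 8.18 and 31.9 in Adamts17-/- (1.93 ± 1.60). Trp53 itself was at 2.06, 1.40 and 6.15 in WT against 7.13, 1.3 and 0.979 in Adamts17-/-, with no separation.

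The 14-3-3 genes, whose products bind phosphorylated CDC25 and many other proteins, held the 3 members with the highest mean level, Ywhab, Ywhaq and Ywhae, while Ywhag averaged 13.3 RPKM over the 6 libraries. Ywhab was at 121, 108 and 307 RPKM in WT against 248, 314 and 107 in Adamts17-/-, and Ywhaq at 82.3, 212 and 224 in WT against 72.0, 184 and 210.3 in Adamts17-/-. Neither genotype was above the other for these 2, with log2 fold changes of 0.35 ± 1.10 and -0.16 ± 1.12. Ywhah differed, at 32.7, 37.9 and 158 in WT against 6.07, 74.6 and 0.0444 in Adamts17-/-, the lowest log2 fold change of the 80 (-2.85 ± 1.52), and -1.36 without replicate 3. Genes of this family and Skp1a have near-identical copies in the genome, and the labels do not say how reads with several positions were counted, so their levels are uncertain.

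Of the signalling and chromatin members, Hdac1, a histone deacetylase recruited by pocket proteins, was at 11.4, 18.2 and 6.44 RPKM in WT against 61.2, 27.9 and 43.0 in Adamts17-/-. All 3 mutant libraries were above all WT libraries, and the log2 fold change of 1.83 ± 1.36 (SE) stayed between 1.48 and 2.16 with 1 library left out. Smad4, the common mediator of TGF-beta and BMP signals, was at 31.4, 32.1 and 62.9 in WT against 59.8, 5.04 and 3.05 in Adamts17-/-. Gsk3b, a kinase that marks cyclin D1 for breakdown, was at 15.3, 17.7 and 24.8 in WT against 43.6, 1.34 and 57.9 in Adamts17-/-, lowest in replicate 2. Myc was under 0.2 RPKM in 5 libraries and at 6.77 in Adamts17-/- replicate 2.

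Genes of the cycle outside this annotation were also described. Of 21 other mitotic genes found in the table, 16 had their highest value in Adamts17-/- replicate 2 (76.2%), and of 16 tested 14 were higher and 2 lower, with a median log2 fold change of 1.29 and of 0.82 without that library. Ube2c, the ubiquitin-conjugating enzyme of the anaphase-promoting complex, was at 15.2, 11.2 and 0 RPKM in WT against 27.9, 705 and 23.6 in Adamts17-/-, and Kif23, a kinesin of cytokinesis, at 3.05, 10.4 and 6.83 in WT against 46.3, 58.2 and 29.1 in Adamts17-/-. For both, every mutant library was above every WT library, also those other than replicate 2. Kif11 was the third such gene of the 16 tested, at 6.91, 8.16 and 4.76 in WT against 10.7, 12.2 and 10.6 in Adamts17-/-. Over all genes tested the share was 3.09%. Nothing is read from this count, since the list was chosen with earlier results of these data known. The proliferation marker Mki67 was at 8.32, 3.75 and 4.43 in WT against 11.3, 63.0 and 2.65 in Adamts17-/-, and Top2a at 7.57, 2.97 and 9.32 in WT against 3.25, 100.3 and 6.85 in Adamts17-/-. Of 10 other G1 and S phase regulators tested, 9 were higher with a median log2 fold change of 1.52, and 10 without replicate 2 (1.08). These 2 lists thus had a median above 0 without that library, unlike the mitotic members (-0.49). Of 8 quiescence and antiproliferative genes 4 were higher and 4 lower (median -0.057, and -0.99 without it). None of these passed the test over all genes.

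Markers of blood cells moved with the library that led these genes. All 12 erythroid markers in the table were highest in Adamts17-/- replicate 2, and their summed level was 3271 to 69750 RPKM in WT against 3762 to 264678 in Adamts17-/-. All 7 neutrophil and myeloid markers were also highest there, summing to 16.0 to 1776 in WT against 85.5 to 52164 in Adamts17-/-, and Prtn3, an enzyme of immature neutrophils, was at 112 in that library and listed at 0 in the other 5. Klf1, a transcription factor of red cell precursors, was at 30.5 RPKM there and at most 1.83 elsewhere. Markers of columnar chondrocytes, the dividing neighbours of this zone, summed to 603 to 2927 in WT against 360 to 1057 in Adamts17-/-, lowest in replicate 2. WT replicate 2, the library second in erythroid level, had a cyclin and CDK sum of 43.3 RPKM, the lowest of all. The part of blood cells in the cell cycle values was not tested, and neither was that of depth, which was also greatest in replicate 2. Skeletal muscle markers summed to 258 to 16583 RPKM in WT against 362 to 561 in Adamts17-/-, the highest being WT replicate 1.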

How the data were processed

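Gene expression was measured by mRNA sequencing in 6 libraries, 3 WT and 3 Adamts17-/-. The authors deposited 1 value per gene and library, read here as RPKM scaled by trimmed means of M-values, from the values themselves and the table's name. No source names the unit. For the aligner, counter, genome build and strand use: not given in the sources used here. Value times transcript length falls on steps and simple fractions of them; dividing by the step gave read equivalents, of which 23.9% to 34.4% of those from 1 to 20 were whole within 0.01, so no count model was used. Equal values above 0 in any pair of libraries were found for 0 genes.

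Groups and replicate numbers came from the titles and columns from the descriptions. Genes with at least 1 RPKM in at least 3 libraries (9128) were compared as log2(RPKM + 1) with limma 3.58.1 in R 4.3.3 (two-sided, empirical Bayes with an intensity trend, Benjamini-Hochberg adjustment over all genes tested, threshold 0.05), after a check on simulated data. On this scale the change of low genes is understated. Named genes were 25 fixed regulators and, per role, up to 2 tested members per direction with the largest log2 fold change; others were named after their values were seen. The members, roles and lists were chosen with earlier results of these data known. Promoter windows came from RefSeq (GRCm38.p6), matched by Entrez ID, taking the window nearest to the table's start (97.0% of matched genes within 1000 bp); coordinates of genes are the table's own. Alternatives were each library left out in turn, a replicate block, library weights, no trend, and other pseudocounts, filters and scalings. Python 3.11.15, pandas 2.3.3 and matplotlib 3.10.9 were used for tables and plots.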

Additional observations from a re-analysis of the deposited data

How the results depend on the processing

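None of the members was called in any of the 16 alternative fits. Over all genes, library weights called 0 higher and 1 lower, and fits that left out 1 library called 0 to 5 higher (5 without Adamts17-/- replicate 3) and 0 lower. The median log2 fold change of tested members stayed above 0 in all 16, from 0.14 with library weights to 1.15 without Adamts17-/- replicate 3, and was 0.28 with upper-quartile scaling, which moved the median of all genes by -0.195. It was 0.15 without Adamts17-/- replicate 2, and 0.20 with WT replicate 1 left out as well, a fit added after seeing the data. Of 10 role medians, 6 changed sign in some fit (20 of 160 values), and of 48 named genes tested 23 did (56 of 749 values), none of them called. With the replicate block, 0 genes and 0 members were called and the median stayed at 0.51. The labels do not state that replicate numbers pair animals, so the main fit had no block. Deviations of same-numbered libraries correlated at -0.00751, -0.352 and -0.100, which cannot show whether they share a litter. Depth limits single values: 70 of 104 members had at most 1 read equivalent in some library.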

Other observations

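A few members, named after their values were seen, were high in both Adamts17-/- replicates 1 and 2 and near 0 in the other 4 libraries. Skp2, the SCF subunit that recognises Cdkn1b, was at 0.93, 0 and 0 RPKM in WT against 30.0, 29.2 and 0.115 in Adamts17-/-. Ccne1, the cyclin of the G1/S transition, was at 0.716, 0.0465 and 0.119 in WT against 17.9, 22.7 and 0.422 in Adamts17-/-. Tfdp2, a partner of E2F factors, was at 0.0603, 0.103 and 0.334 in WT against 22.6, 17.4 and 0.0410 in Adamts17-/-. None of the 3 passed the filter on low values.

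Another pair was shared across genotypes. Atr, the kinase that senses stalled replication, was at 18.9 RPKM in WT replicate 2 and 21 in Adamts17-/- replicate 1, and at most 3.53 in the other 4 libraries. Cdc14b was at 49.5 and 42.5 in the same 2 libraries and at most 10 in the others.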
